A study of Mus musculus with 6 samples.

Results

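The osteochondrogenic and calcification genes followed here were the 10 genes *Sox9*, *Runx2*, *Spp1*, *Mgp*, *Alpl*, *Acan*, *Col2a1*, *Chad*, *Cilp* and *Cytl1*, taken by symbol from the 55426 genes of the deposited table, and all 10 were found. RNA came from the abdominal aorta of male C57BL/6J mice, 3 controls and 3 Prdm16SMKO mice, with 1 library per mouse. Prdm16SMKO mice were *Prdm16* fl/fl and carried *Myh11*-CreERT2, a Cre recombinase that tamoxifen activates and that the smooth muscle myosin promoter drives from a cassette on the Y chromosome. The control mice were wild-type and carried *Myh11*-CreERT2 as well. By the study's methods, mice received tamoxifen by gavage at 75 mg/kg/day for 5 days at an age of 8 to 10 weeks and entered experiments 2 weeks later. The aortas sequenced were from mice in which no aneurysm had been induced, and the time at which their RNA was taken is not given in the sources used here. *Myh11*-CreERT2 also acts in the smooth muscle of other organs and is not meant to act in endothelial cells, fibroblasts or leukocytes, and *Prdm16* was not measured by cell type here.

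Vascular smooth muscle cells (VSMCs) can take on features of chondrocytes and osteoblasts, the cells that build cartilage and bone, and this change accompanies calcification of the artery wall. SOX9 is the transcription factor that switches on cartilage matrix genes such as type II collagen and aggrecan, RUNX2 does the same for bone, and bone morphogenetic proteins (BMPs) lie upstream of both. Mineral forms when phosphate outweighs inhibitors: matrix Gla protein holds crystals back, and tissue-nonspecific alkaline phosphatase removes the inhibitor pyrophosphate.

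Values are TPM, the length-corrected share of a transcript among all transcripts of a library, which can be compared between genes, and 3 values of a group stand in the order of its replicates 1, 2 and 3. The files keep no read counts, so the depth of each library and the counting error of a value are unknown. Differences are log2 fold changes of Prdm16SMKO over control on the log2(TPM + 0.5) scale, which understates the change of genes at low TPM, tested by limma in the 15775 genes whose mean reached 0.5 TPM. A gene was called at a Benjamini-Hochberg adjusted p under 0.05. *Prdm16* itself lay lower in every Prdm16SMKO library (14.8 to 27.7 TPM) than in any control library (30.8 to 36.8 TPM), with a log2 fold change of −0.70 that was not called (limma, Benjamini-Hochberg adjusted p = 0.376). Ribosomal 45S transcripts took 15.6% to 31.4% and mitochondrial transcripts 15.8% to 27.4% of a library's TPM, with ranges that overlapped between the groups. Smooth muscle marker genes led by *Acta2* and *Tagln* summed to 14986 to 25423 TPM in control and 11552 to 17657 TPM in Prdm16SMKO libraries, so the defining markers of the labelled tissue were present. Markers of neighbouring tissues and other cells differed between libraries: neuron and Schwann cell markers, led by *Uchl1* and *Mbp*, were highest in Prdm16SMKO replicate 1 (634 TPM summed, 49.9 to 219 in the other 5), as were skeletal muscle markers (88.6 against 6.01 to 13.2), adipocyte markers were highest in Prdm16SMKO replicate 3 (2872 against 484 to 1125), and fibroblast (1512 against 814 to 1100) and endothelial markers (440 against 197 to 268) in Prdm16SMKO replicate 2. Immediate-early genes, which respond to handling of tissue among other stimuli, summed to 558 to 799 TPM in control and 187 to 366 TPM in Prdm16SMKO libraries, and 3 of 8, *Fosb*, *Nr4a1* and *Atf3*, fell at an adjusted p under 0.05 (limma). Markers of T cells (0.82 to 7.36 TPM summed), B cells (3 to 14.0), mesothelium (0.03 to 0.64) and kidney and adrenal gland (2.48 to 4.29) were low throughout. In these whole aortas, fewer cells of a type and less RNA per cell cannot be told apart.

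None of the 8 tested osteochondrogenic genes was called (limma), against 0.355% of all tested genes (0.184% higher and 0.171% lower in Prdm16SMKO mice), and *Runx2* and *Col2a1* stayed under the expression minimum. At an unadjusted p under 0.05 there were 2, *Acan* and *Mgp*, both lower, where the share among all genes was 8.74% (4.88% higher and 3.85% lower). These were also the 2 genes of which every Prdm16SMKO library lay below every control library, a pattern seen in 5.76% of all tested genes, with the opposite pattern in 7.02%, and the groups overlapped in the other 8. Of the 8 tested, 5 had a lower and 3 a higher mean log2 value in the knockout, and their median was −0.21 (log2 fold change) against 0.02 over all tested genes. Under array weights, which give less say to libraries that fit poorly, *Acan* alone of the 10 was called (adjusted p = 0.0433), where 3.13% of all tested genes were.

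**Figure D1:**
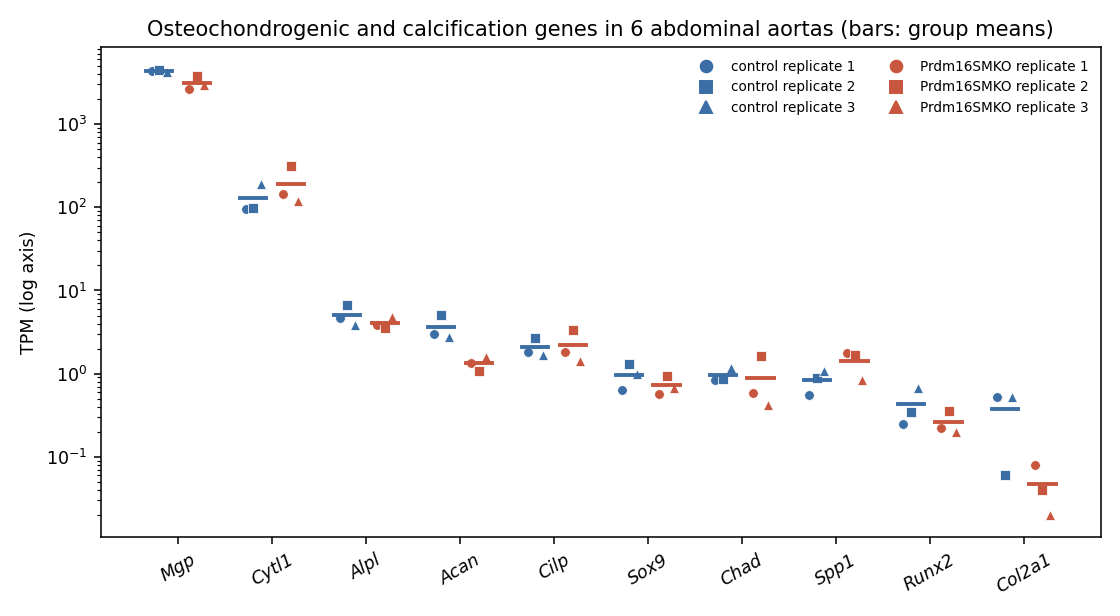
TPM on a log axis of the 10 osteochondrogenic and calcification genes, ordered by their control mean, in 3 control (blue) and 3 Prdm16SMKO (red) libraries, 1 symbol shape per replicate number, with bars at the group means. *Mgp* lies between 2663 and 4515 TPM and *Col2a1* at or under 0.53 TPM, and only in *Mgp* and *Acan* do the red points all lie below the blue ones.

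The 10 genes differed widely in level. In control aortas *Mgp* stood at rank 25 of the 15775 tested genes and *Cytl1* at rank 634, and both were far above the rest. *Alpl*, *Acan* and *Cilp* followed at 5.06 ± 1.46, 3.63 ± 1.31 and 2.07 ± 0.544 TPM (SD, n = 3), and the ranges of *Alpl* and *Acan* overlapped. *Sox9*, *Chad* and *Spp1*, at 0.977 ± 0.335, 0.953 ± 0.179 and 0.840 ± 0.262 TPM (SD, n = 3), had no order beyond their spread. *Runx2* and *Col2a1* came last, at 0.427 ± 0.225 and 0.373 ± 0.271 TPM (SD, n = 3), again with overlapping ranges, and that of *Runx2* also reached into those of *Sox9* and *Spp1*.

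Of the regulators, *Sox9* (ENSMUSG00000000567; chromosome 11 of GRCm38, 112782224 to 112787760), the transcription factor of chondrocytes, was at 0.64, 1.31 and 0.98 TPM in the controls against 0.57, 0.95 and 0.68 TPM in Prdm16SMKO mice. The groups overlapped, and the log2 fold change of −0.25 had a 95% interval from −0.98 to 0.49. *Runx2* (ENSMUSG00000039153; chromosome 17, 44495987 to 44814797), the transcription factor of osteoblasts, was at 0.25, 0.35 and 0.68 TPM in the controls against 0.22, 0.36 and 0.20 TPM in Prdm16SMKO mice. Its groups overlapped too, and it was too low for the fit (difference of the mean log2 values −0.27, exact permutation test, two-sided p = 0.3, where 0.1 is the smallest that 3 libraries against 3 can give). An antisense gene, *Runx2os1*, shares 519 exonic bases with *Runx2*, and the sources used here do not say whether strand was used in counting.

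Among the cartilage matrix genes, *Acan* (ENSMUSG00000030607; chromosome 7, 79053483 to 79115099), which encodes the large proteoglycan aggrecan, showed the largest difference of the 8 tested. It was at 2.97, 5.14 and 2.79 TPM in the controls against 1.33, 1.08 and 1.57 TPM in Prdm16SMKO mice. The Prdm16SMKO values lay close together and below all controls, with control replicate 2 the highest of the 6. The mean was 36.5% of the control mean, with a log2 fold change of −1.14 (SE 0.28, 95% interval −1.77 to −0.51; limma, Benjamini-Hochberg adjusted p = 0.191, unadjusted p = 0.00280). Leaving out each library in turn kept the log2 fold change between −1.28 and −0.90, with an adjusted p between 0.228 and 0.485.

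The other 3 cartilage matrix genes were low and overlapped between the groups. *Col2a1* (ENSMUSG00000022483; chromosome 15, 97975602 to 98004695), the type II collagen that defines hyaline cartilage, was at 0.53, 0.06 and 0.53 TPM in the controls against 0.08, 0.04 and 0.02 TPM in Prdm16SMKO mice. Only control replicates 1 and 3 stood above 0.1 TPM, and the gene was too low for the fit (difference of the mean log2 values −0.62, exact permutation test, two-sided p = 0.2). *Chad* (ENSMUSG00000039084; chromosome 11, 94565047 to 94569127), the leucine-rich cartilage protein chondroadherin, was at 0.84, 0.86 and 1.16 TPM in the controls against 0.59, 1.63 and 0.42 TPM in Prdm16SMKO mice. The Prdm16SMKO values enclosed the control range on both sides, so the log2 fold change of −0.17 (95% interval −1.04 to 0.70) turned to 0.075 without Prdm16SMKO replicate 3. *Cilp* (ENSMUSG00000042254; chromosome 9, 65265180 to 65280605), which encodes cartilage intermediate layer protein, was at 1.82, 2.69 and 1.69 TPM in the controls against 1.81, 3.37 and 1.43 TPM in Prdm16SMKO mice. It differed by a log2 fold change of 0.03 (95% interval −0.69 to 0.75), whose sign changed without control replicate 1 (−0.03), control replicate 3 (−0.07) or Prdm16SMKO replicate 2 (−0.26).

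*Cytl1* (ENSMUSG00000062329; chromosome 5, 37735519 to 37739820) encodes a small secreted protein known from CD34+ blood precursors and from cartilage. It was at 94.1, 98.7 and 190 TPM in the controls against 146, 309 and 120 TPM in Prdm16SMKO mice, or 128 ± 54.2 against 192 ± 103 TPM (SD, n = 3). The groups overlapped and Prdm16SMKO replicate 2 stood above the other 5 libraries. The log2 fold change was 0.54 (95% interval −0.33 to 1.403; limma, Benjamini-Hochberg adjusted p = 0.825), and 0.13 without that library. The 8 endothelial markers, led by *Pecam1* and *Vwf*, summed to 197, 231 and 259 TPM in the controls against 225, 440 and 268 TPM in Prdm16SMKO mice, none of them at 0 in all libraries. The 8 fibroblast markers summed to 928, 814 and 1011 TPM against 834, 1512 and 1100 TPM. They were thus highest in the same libraries of each group. Macrophage markers were also highest in Prdm16SMKO replicate 2 (204 TPM summed). The part of any of these cells in the *Cytl1* values was not tested.

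Of the genes that control mineral, *Mgp* (ENSMUSG00000030218; chromosome 6, 136872435 to 136875823) encodes matrix Gla protein, the main inhibitor of calcification in the artery wall. It was at 4308, 4515 and 4268 TPM in the controls, a narrow spread, and at 2663, 3793 and 2971 TPM in Prdm16SMKO mice. Every Prdm16SMKO library lay below every control library, with 3143 ± 584 against 4364 ± 133 TPM (SD, n = 3), or 72.0% of the control mean. The log2 fold change was −0.49 (SE 0.19, 95% interval −0.92 to −0.05; limma, Benjamini-Hochberg adjusted p = 0.501, unadjusted p = 0.0317), and −0.38 to −0.63 with each library left out in turn. Of the 8 smooth muscle markers 7 were also lower, with a median log2 fold change of −0.39 and none called. Their sums in the Prdm16SMKO libraries were 17657, 13651 and 11552 TPM, so replicate 1, which held the least *Mgp*, had the highest sum of its group. The part of smooth muscle in the *Mgp* and *Acan* values was not tested. Even in Prdm16SMKO aortas *Mgp* remained at rank 31 of the tested genes.

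*Spp1* (ENSMUSG00000029304; chromosome 5, 104435118 to 104441050) encodes osteopontin, a phosphoprotein of bone that macrophages also secrete. It was at 0.56, 0.88 and 1.08 TPM in the controls against 1.77, 1.68 and 0.85 TPM in Prdm16SMKO mice. Prdm16SMKO replicates 1 and 2 lay above all controls and replicate 3 among them, with a log2 fold change of 0.51 (95% interval −0.24 to 1.26; limma, Benjamini-Hochberg adjusted p = 0.789). The predicted gene *Gm42793* shares 309 exonic bases with it on the same strand, so its reads may be split. The 8 macrophage markers, led by *Lyz2* and *C1qa*, summed to 71.1 to 112 TPM in control and 113 to 204 TPM in Prdm16SMKO libraries, and none was at 0 in all libraries. Of the 8, 5 were higher at an unadjusted p under 0.05 (limma), against 4.88% of all tested genes. Prdm16SMKO replicate 1, which held the most *Spp1*, had the lowest macrophage sum of its group, and the part of these cells in the *Spp1* values was not tested. *Alpl* (ENSMUSG00000028766; chromosome 4, 137741733 to 137796384), tissue-nonspecific alkaline phosphatase, was at 4.69, 6.67 and 3.82 TPM in the controls against 3.89, 3.54 and 4.79 TPM in Prdm16SMKO mice. The groups overlapped, and the log2 fold change of −0.26 had a 95% interval from −0.80 to 0.28. *Alpl* is the 1 gene of the 10 on chromosome 4, which also holds *Prdm16*.

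**Figure D2:**
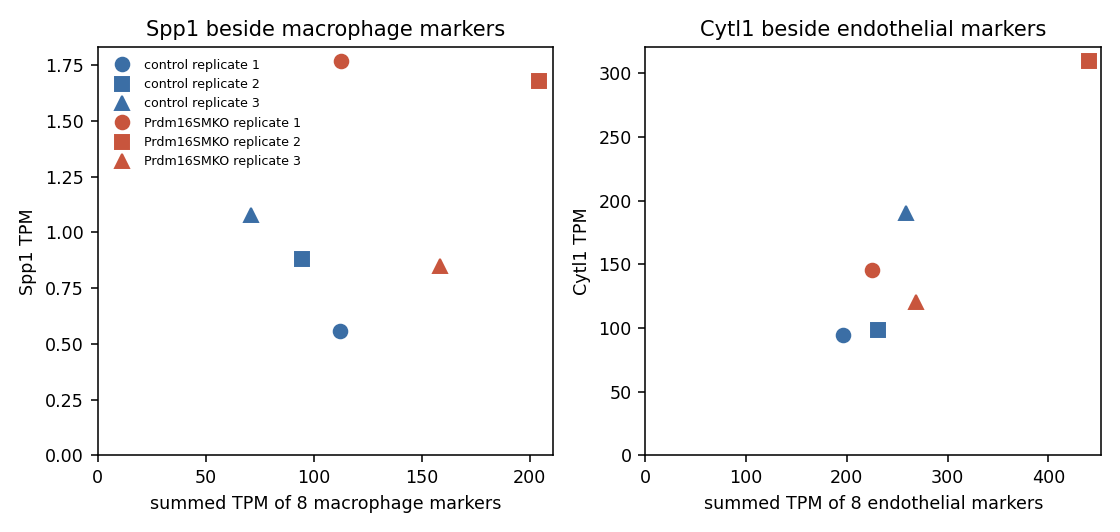
Left, *Spp1* TPM against the summed TPM of 8 macrophage markers, and right, *Cytl1* TPM against the summed TPM of 8 endothelial markers, 1 point per library (blue control, red Prdm16SMKO). Prdm16SMKO replicate 2 has the highest marker sum in both panels and the highest *Cytl1*, while the highest *Spp1*, in Prdm16SMKO replicate 1, stands beside the lowest macrophage sum of its group. Fibroblast markers, not drawn, were also highest in Prdm16SMKO replicate 2.

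**Figure D3:**
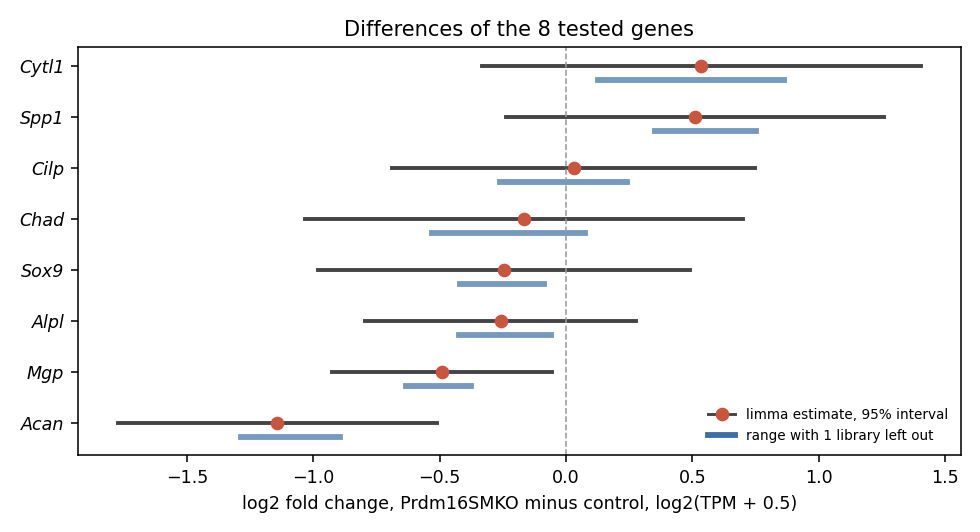
Log2 fold changes of Prdm16SMKO over control for the 8 tested genes on the log2(TPM + 0.5) scale (red points), with 95% intervals from limma (dark lines) and the range when 1 library was left out in turn (blue bars). The intervals of *Acan* and *Mgp* lie below 0, and those of the other 6 include 0.

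The libraries did not order the genes alike. Control replicate 2 was the highest control for 5 of the 10, among them *Acan*, *Alpl*, *Mgp* and *Sox9*, and it was the highest control for 63.5% of all tested genes. Prdm16SMKO replicate 2 was the highest of its group for 6 of the 10, *Sox9*, *Runx2*, *Mgp*, *Chad*, *Cilp* and *Cytl1*, against 40.3% of all tested genes. Without Prdm16SMKO replicate 2, as without any other single library, the number of genes called among the 10 was 0 (limma).

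Sequences upstream of 7 of the 10 genes were taken from RefSeq on GRCm38.p6, 250 bases before the transcription start that RefSeq gives. They were searched on both strands for the core of the RUNX site (ACCACA), the core of the SOX site (ACAAT) and the letters TATAAA of a TATA box. TATAAA was searched at any position and without variants, so a match is not shown to be a TATA box and its absence does not exclude one. Of all 32851 upstream sequences of the same length, 14.0% held the RUNX core, 27.7% the SOX core and 12.4% TATAAA. The sequences shown are those of the osteoblast regulator *Runx2*, of *Spp1* with its RUNX core, of *Acan*, the gene with the largest difference, and of *Cytl1*, the most abundant of the 7, all read from 5′ to 3′ along the gene with matches in capitals. They are chr17:44814628-44814877 on the minus strand for *Runx2*, and on the plus strand chr5:104434861-104435110 for *Spp1*, chr7:79052976-79053225 for *Acan* and chr5:37735269-37735518 for *Cytl1*.
Runx2: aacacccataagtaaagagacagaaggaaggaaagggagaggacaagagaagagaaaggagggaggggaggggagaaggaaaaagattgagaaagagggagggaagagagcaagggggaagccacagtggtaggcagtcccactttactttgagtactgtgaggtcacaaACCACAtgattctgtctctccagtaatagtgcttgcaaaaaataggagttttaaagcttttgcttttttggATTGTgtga
Spp1: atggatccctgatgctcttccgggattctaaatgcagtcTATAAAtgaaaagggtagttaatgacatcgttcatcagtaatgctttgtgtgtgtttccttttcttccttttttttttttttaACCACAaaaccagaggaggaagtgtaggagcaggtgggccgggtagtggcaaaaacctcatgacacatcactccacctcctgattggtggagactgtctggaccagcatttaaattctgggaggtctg
Acan: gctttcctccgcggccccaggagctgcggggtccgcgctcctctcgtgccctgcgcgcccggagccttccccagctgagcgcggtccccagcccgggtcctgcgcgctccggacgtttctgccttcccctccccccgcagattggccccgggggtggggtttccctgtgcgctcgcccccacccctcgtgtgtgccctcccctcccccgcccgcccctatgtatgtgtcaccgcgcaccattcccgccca
Cytl1: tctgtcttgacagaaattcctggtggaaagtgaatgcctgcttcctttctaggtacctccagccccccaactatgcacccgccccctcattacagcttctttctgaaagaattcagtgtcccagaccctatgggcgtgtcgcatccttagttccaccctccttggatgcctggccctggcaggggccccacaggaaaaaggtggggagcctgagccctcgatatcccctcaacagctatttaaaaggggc
For *Acan* and the *Spp1* sequence shown, no GENCODE M21 transcript of the gene holds all of the bases compared after the RefSeq start. The *Spp1* window ended at 104435110, close before the annotated gene start at 104435118. The *Acan* window ended at 79053225, further before its annotated gene start at 79053483, so it is not shown to lie directly before a transcript of that annotation. *Runx2* held a RUNX core that begins 80 bases before the start and a SOX core on the other strand 9 bases before it. The GENCODE gene reaches to 44814797, so the part of this window with both matches lies inside the annotated gene. The *Spp1* sequence held a RUNX core at −128 and the letters TATAAA at −211, counted to the first base of the match. The second RefSeq entry of *Spp1*, at 104435942 to 104436191 inside the annotated gene, leads into a transcript of it and held none of the 3 motifs. *Acan* and *Cytl1* held none of the 3 motifs in this window, and differed in base composition, with 74.4% G or C in *Acan* and 54.8% in *Cytl1*, against a median of 52.4% over all sequences. Of the others, *Chad* held TATAAA at −28, *Cilp* a RUNX core at −205, and the second of the *Alpl* entries, which lies inside the annotated gene, TATAAA at −192 on the other strand. The *Cilp* sequence also held TATATAA, a variant that was not searched. A match of these letters is a description and not a measured binding site, and no binding data were analysed here.

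Another 132 genes of cartilage, bone and mineral were listed in 6 groups by their known roles but with earlier results of these data in view, and 94 of those reported passed the expression minimum. A cartilage matrix gene, *Comp*, fell and was the 1 gene called among the 94 (1.06%, against 0.355% of all tested genes; limma). The study's own analysis of these aortas names *Comp*, *Id1*, *Ihh*, *Fn1* and *Gas6* among its downregulated genes at an adjusted p under 0.05, in a listing limited to cell death and apoptosis terms. Its model is not given in the sources used here, and of these genes only *Comp* was called by limma. The study called many more genes in both directions than the 56 called here, so a gene not called here is not shown to be unchanged. The groups did not overlap in 12 genes that were higher and 16 that were lower in Prdm16SMKO mice (29.8% of the 94, against 12.8% of all tested genes). Of these, *Cilp2* and *Trem2* passed the minimum only through the group in which they were higher. At an unadjusted p under 0.05 (limma), 9 of the 94 were higher and 15 lower, where the shares over all tested genes were 4.88% and 3.85%. Since earlier results were in view when the lists were written, these counts are a description only.

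The BMP and hedgehog group held 29 tested genes, 13 higher and 16 lower, with a median log2 fold change of −0.10 that lay above 0 with array weights (0.04) and without Prdm16SMKO replicate 1 (0.00051). At an unadjusted p under 0.05 (limma), where 4.88% of all tested genes were higher and 3.85% lower, there were 4 higher and 4 lower. All 8 were without overlap between the groups and none was called. The higher ones were the antagonist *Chrdl1* and the ligands *Bmp3*, *Bmp4* and *Bmp6*. *Chrdl1*, which binds BMPs outside the cell, was at 25.0, 26.9 and 17.8 TPM in the controls against 50.7, 57.5 and 44.7 TPM in Prdm16SMKO mice, a log2 fold change of 1.13 just short of a call (SE 0.19; limma, Benjamini-Hochberg adjusted p = 0.0620). It was called with a minimum mean of 2 TPM, under each of 3 other scalings and with array weights. *Bmp3*, which opposes bone formation, was at 4.71, 5.95 and 3.14 TPM in the controls against 11.0, 11.2 and 9.15 TPM in Prdm16SMKO mice (log2 fold change 1.13, SE 0.23; limma, Benjamini-Hochberg adjusted p = 0.106), and was called under the 3 other scalings and array weights. *Bmp4*, an osteogenic ligand, was at 44.9 ± 7.34 against 78.9 ± 15.5 TPM (SD, n = 3), and *Bmp6* at 15.2 ± 4.54 against 33.4 ± 19.9 TPM (SD, n = 3), where Prdm16SMKO replicate 2 alone reached 56.3 TPM. Neither was called.

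The 4 lower genes at an unadjusted p under 0.05 were the receptor *Bmpr1b*, the BMP-induced inhibitors of DNA binding *Id1* and *Id2*, and the hedgehog ligand *Ihh*. *Id1* was at 94.4, 127 and 94.2 TPM in the controls against 71.5, 54.7 and 66.9 TPM in Prdm16SMKO mice (log2 fold change −0.70, SE 0.18; limma, Benjamini-Hochberg adjusted p = 0.225). *Id2* was at 137 ± 33.4 against 84.9 ± 10.4 TPM, *Bmpr1b* at 5.81 ± 1.302 against 3.07 ± 0.440 TPM and *Ihh* at 2.94 ± 0.726 against 1.497 ± 0.268 TPM (SD, n = 3 each), and none was called. The groups overlapped in the other tested genes of the group, among them the receptors *Bmpr1a* (log2 fold change −0.26), *Bmpr2* (0.02), *Acvr1* (0.09) and *Acvrl1* (−0.10) and the transducer *Smad1* (0.13). *Id3*, among the 3 most abundant genes of the group, also overlapped between the groups at 85.6 ± 11.0 and 75.6 ± 9.81 TPM (SD, n = 3).

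**Figure D4:**
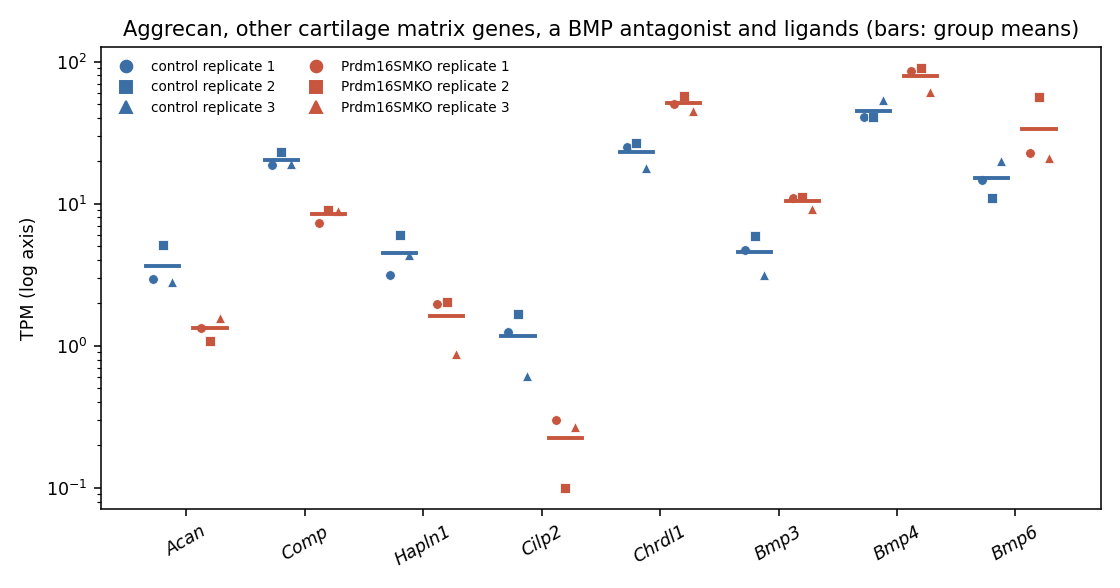
TPM on a log axis of 4 cartilage matrix genes, 1 BMP antagonist and 3 BMP ligands in 3 control (blue) and 3 Prdm16SMKO (red) libraries, 1 symbol shape per replicate number, with bars at the group means. The red points lie below the blue ones for *Acan*, *Comp*, *Hapln1* and *Cilp2* and above them for *Chrdl1*, *Bmp3*, *Bmp4* and *Bmp6*, and *Comp* is the 1 gene of these that was called. These genes were picked with their values in view and do not stand for their lists. Of the 12 tested genes of the cartilage matrix list 5 were higher, with *Prg4* and *Col9a3* above all controls, and 7 were lower. *Cilp2* passed the expression minimum only through the control libraries.

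Of 23 other cartilage matrix genes 12 were tested, 5 higher and 7 lower, with a median log2 fold change of −0.14 that was 0.10 with no expression minimum and −0.29 with a minimum mean of 2 TPM. At an unadjusted p under 0.05 (limma) 1 was higher and 4 were lower, where the shares over all tested genes were 4.88% and 3.85%. *Col9a1*, *Col9a2*, *Col10a1* and *Col11a1*, collagens of cartilage, were under the minimum, *Col9a3* (log2 fold change 0.57, all Prdm16SMKO libraries above all controls) and *Col11a2* (−0.37, overlapping) were tested and not called, and *Matn1*, *Ucma* and *Otor* were listed at 0 in all 6 libraries. *Comp* (ENSMUSG00000031849; chromosome 8, 70373558 to 70382066), cartilage oligomeric matrix protein, was at 18.8, 22.9 and 19.2 TPM in the controls against 7.37, 8.97 and 8.92 TPM in Prdm16SMKO mice, all below all controls. It fell by 1.22 on the log2 scale (SE 0.17; limma, Benjamini-Hochberg adjusted p = 0.0265), and was no longer called after removal of any single library (0.0613 to 0.114), with no expression minimum (0.110), without a variance trend (0.0652) or with a replicate block (0.137), while its log2 fold change stayed between −1.27 and −1.13 under all 16 alternatives. *Hapln1*, the link protein that holds aggrecan to hyaluronan, was at 3.13, 6.05 and 4.32 TPM in the controls against 1.98, 2.04 and 0.87 TPM in Prdm16SMKO mice (log2 fold change −1.24, SE 0.32; limma, Benjamini-Hochberg adjusted p = 0.238). *Hapln1* thus lay lower without overlap, as its partner *Acan* did, and neither was called. *Mia*, secreted by chondrocytes and melanoma cells, had the lowest log2 fold change of the group (−1.84), and *Cilp2*, the paralog of *Cilp*, was at 1.17 ± 0.528 against 0.223 ± 0.108 TPM (SD, n = 3). With a mean of 0.697 TPM, *Cilp2* passed the minimum only through the control libraries. *Prg4*, the lubricant of joints, had the highest log2 fold change at 0.81, and the abundant *Prelp*, *Fmod* and *Matn2* overlapped between the groups.

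Among regulators of cartilage and bone 13 of 21 genes were tested, 7 higher and 6 lower, with a median log2 fold change of 0.0017 that became −0.11 without Prdm16SMKO replicate 2 and 0.13 without Prdm16SMKO replicate 3. Among the 7, *Dlx5* had a control mean of 0.453 TPM, under the minimum, and passed through the Prdm16SMKO libraries (0.833 TPM). *Atf4* alone, a stress-response factor that osteoblasts also need, had an unadjusted p under 0.05, with 82.5 ± 8.44 against 64.8 ± 4.83 TPM (SD, n = 3), and was not called (limma, Benjamini-Hochberg adjusted p = 0.556). *Mef2c* and *Foxc2*, with *Atf4* the most abundant of the group, overlapped between the groups. *Runx1*, the relative of *Runx2* known from blood formation, had the highest log2 fold change (0.47), with 1.35 ± 0.306 against 2.11 ± 0.809 TPM (SD, n = 3) and overlapping groups.

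Bone matrix genes had the lowest median of the 6 groups, −0.34, with 10 of 14 tested genes lower and 4 higher, and it was −0.56 without Prdm16SMKO replicate 2. *Bglap*, *Bglap2*, *Ibsp*, *Dmp1*, *Mepe* and *Ostn* were under the minimum, so the median does not cover them. Of the smooth muscle markers 7 of 8 were also lower, with a median of −0.39, and their part in the bone matrix values was not tested. At an unadjusted p under 0.05 (limma), where 3.85% of all tested genes were lower and 4.88% higher, there were 6 lower and 1 higher. The lower ones were *Sost*, *Fn1*, *Bgn*, *Sparc*, *Col1a1* and *Col5a1*, the higher one was *Phex*, and none was called. *Sost*, whose source cells in these aortas were not identified, encodes the Wnt inhibitor sclerostin, known from osteocytes, and had the lowest log2 fold change. It was at 465, 642 and 379 TPM in the controls against 272, 278 and 245 TPM in Prdm16SMKO mice (log2 fold change −0.87, SE 0.20; limma, Benjamini-Hochberg adjusted p = 0.1704). *Sost* was called with median-of-ratios scaling (0.0272), with mitochondrial and 45S transcripts taken out of the TPM (0.0429) and with array weights (0.0207). *Bgn*, *Sparc* and *Fn1*, the 3 most abundant, were at 2124 ± 465 against 1298 ± 199, 1744 ± 190 against 1195 ± 133 and 1381 ± 272 against 836 ± 217 TPM (SD, n = 3), and none of the 3 overlapped between the groups. *Phex*, a membrane peptidase of osteoblasts that restrains the phosphate hormone FGF23, was at 2.16 ± 0.357 against 3.99 ± 0.255 TPM (SD, n = 3), and *Col12a1* had the highest log2 fold change at 0.81. *Bglap2* and *Mepe*, markers of mature osteoblasts and osteocytes, were listed at 0 in all 6 libraries, but others of the list were present at low level. *Ibsp* was at 0.86, 0.49 and 0.46 TPM in the controls against 0.05, 0.11 and 0 TPM in Prdm16SMKO mice, all below all controls but under the minimum. *Dmp1* lay at 0.04 to 0.13 TPM and *Bglap* at 0.51 TPM in control replicate 1 alone. *Ifitm5* was tested and overlapped between the groups (log2 fold change −0.20).

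The genes of phosphate, pyrophosphate and mineralisation control were spread around 0, with 11 of 20 tested genes higher, 9 lower and a median log2 fold change of 0.04 (−0.09 to 0.13 with 1 library left out). At an unadjusted p under 0.05 (limma), where 4.88% of all tested genes were higher and 3.85% lower, there were 3, all higher and none called: *Smpd3*, *Ank* and *Tnfrsf11b*. *Ank*, which lets pyrophosphate out of cells, was at 19.3, 28.1 and 16.3 TPM in the controls against 32.1, 32.1 and 29.7 TPM in Prdm16SMKO mice (log2 fold change 0.59, SE 0.21; limma, Benjamini-Hochberg adjusted p = 0.441). *Tnfrsf11b*, osteoprotegerin, which holds back osteoclasts, was at 9.71 ± 0.501 against 12.8 ± 1.42 TPM, and *Smpd3*, a sphingomyelinase needed for bone mineral, at 1.45 ± 0.238 against 3.30 ± 1.04 TPM (SD, n = 3 each). *Gas6*, a Gla protein like *Mgp*, had the lowest log2 fold change, −0.35, without overlap between the groups, and its receptor *Axl* and the annexin *Anxa5* overlapped. Osteoclast-like genes had 5 of 6 tested genes higher and none at an unadjusted p under 0.05. Their median log2 fold change of 0.24 dropped to 0.01 without Prdm16SMKO replicate 2, where *Trem2* fell under the minimum and left the median. Of the most abundant genes of the list *Ctsk* and *Tnfrsf11a* overlapped between the groups, while *Acp5* reached 32.1 TPM in Prdm16SMKO replicate 3 against 7.82 to 14.5 in the other 5 libraries. *Trem2*, a receptor of macrophages, had the highest log2 fold change of that group, 0.66, at low values. It was at 0.23, 0.33 and 0.39 TPM in the controls against 0.45, 1.06 and 0.93 TPM in Prdm16SMKO mice. Its mean of 0.565 TPM passed the minimum only through the Prdm16SMKO libraries, and it fell under the minimum without Prdm16SMKO replicate 2 or 3. The part of macrophages in these values was not tested.

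**Figure D5:**
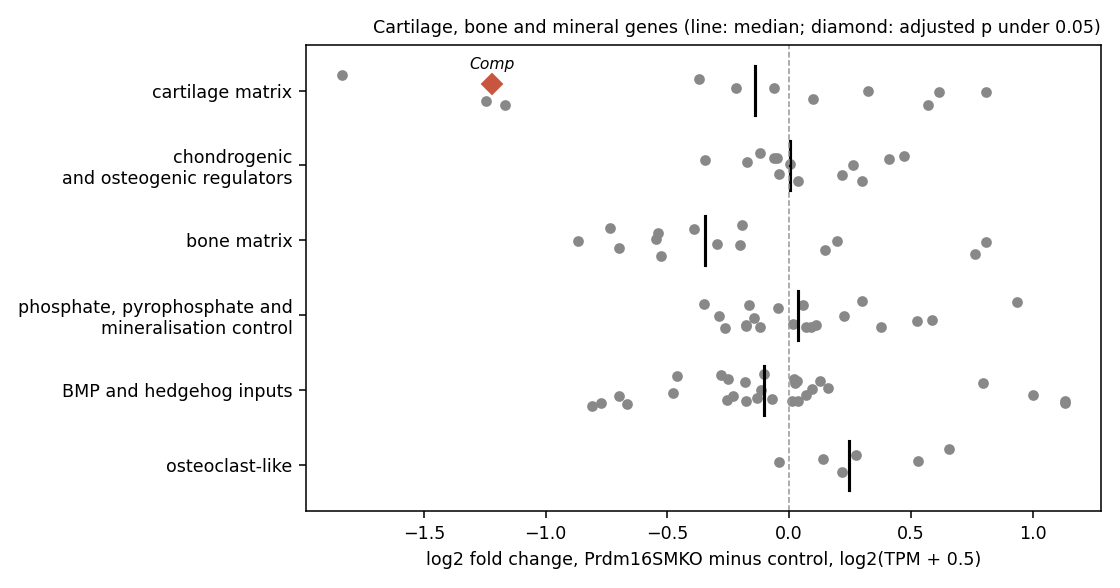
Log2 fold changes of Prdm16SMKO over control on the log2(TPM + 0.5) scale for the 94 tested genes of 6 groups of cartilage, bone and mineral genes (1 point per gene), with a black line at each group's median. The bone matrix median lies at −0.34, the other medians between −0.14 and 0.24, and the diamond marks *Comp*, the gene called.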

How the data were processed

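Polyadenylated RNA of 6 abdominal aortas was sequenced as pairs of 151 bp reads. The deposited values are TPM that the authors computed and rounded to 2 decimals, and the depth of each library is unknown. The submitters' processing notes name cutadapt 2.3, STAR 2.7.8a, RSEM 1.3.3 and GRCm38, and the annotation release and the strand setting are not given in the sources used here. No 2 libraries held identical values (0 pairs). Positions are from GENCODE M21 on GRCm38. TPM were compared as log2(TPM + 0.5) by limma 3.58.1 (R 4.3.3; linear model, variance trend, two-sided, Benjamini-Hochberg over 15775 genes, those whose mean reached 0.5 TPM), a fit tested on simulated data. Single low genes got exact permutation tests in scipy 1.17.1. P-values measure the spread between 3 mice per group.

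The genes, the lists and the tests were chosen with earlier results of these data known, so lists are described by counts and medians without a test. Named by rule were the 10 genes, *Prdm16*, and in each list the called genes, the 3 most abundant (2 for cell markers) and the ends of the range. A few listed genes are not reported here and were left out of the lists, their counts, medians and sums after the results were known. *Chrdl1*, *Bmp4*, *Bmp6*, *Ihh*, *Hapln1*, *Cilp2*, *Dlx5*, *Col1a1*, *Col5a1*, *Phex*, *Ibsp*, *Dmp1*, *Bglap*, *Ostn*, *Ifitm5*, *Ank*, *Tnfrsf11b*, *Col9a1*, *Col9a2*, *Col10a1*, *Col11a1*, *Col9a3*, *Col11a2*, *Bmpr1a*, *Bmpr2*, *Acvr1*, *Acvrl1*, *Smad1*, the genes listed at 0, *Runx2os1* and *Gm42793* are exceptions, chosen once their values had been seen. Alternative settings were a pseudocount of 0.1 or 1, no minimum or a mean of 2 TPM, 3 other scalings, no variance trend, array weights, a replicate block and each library left out.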

Additional observations from a re-analysis of the deposited data

How the results depend on the processing

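The log2 fold changes of the 8 tested osteochondrogenic genes were recomputed under up to 16 alternatives each. Of 125 values, 117 kept their direction and stayed uncalled, 1 was called (*Acan* with array weights) and 7 changed sign, among them *Cilp* with quantile normalization (−0.11) and *Sox9* (0.076) and *Chad* (0.014) with array weights. The sign changes with 1 library left out were in *Cilp* (−0.26 to 0.24) and *Chad* (−0.53 to 0.075). The number of called genes among the 10 was 0 in all other settings, each of the 6 left-out libraries included (0 to 0). Of the other cartilage, bone and mineral genes named, sign changed for *Foxc2* with median-of-ratios scaling (−0.0043) and for *Acp5* (−0.016), *Mef2c* (0.078) and *Tnfrsf11a* (0.029) with array weights, and, with 1 library left out, within ranges of −0.15 to 0.13 for *Foxc2*, −0.0068 to 0.82 for *Acp5*, −0.24 to 0.0043 for *Mef2c*, −0.20 to 0.16 for *Tnfrsf11a*, −0.22 to 0.15 for *Fmod*, −0.075 to 0.24 for *Axl*, −0.052 to 0.34 for *Ctsk* and −0.28 to 0.029 for *Anxa5*.

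The 1 call in the other cartilage, bone and mineral lists became 0 with no minimum, no variance trend or a replicate block, 2 with a minimum mean of 2 TPM, 4 with median-of-ratios scaling, 3 with quantile normalization, 4 with mitochondrial and 45S transcripts removed, 10 with array weights, and 0 with any 1 library left out. Over all genes, the 56 calls (51.8% higher) became 10 with no minimum (40% higher), 153 with median-of-ratios scaling (39.9% higher), 129 with quantile normalization (35.7% higher), 123 without mitochondrial and 45S transcripts, 33 without a variance trend, 494 with array weights and 5 to 61 with 1 library left out, the lowest without control replicate 2, where the median of all genes moved to 0.11. With a minimum mean of 2 TPM, 77 were called, 40.3% of them higher. With a replicate block 4 genes were called. The replicate numbers are not a pairing in the labels, and same-numbered libraries did not deviate together (correlations of −0.13, −0.11 and 0.02, and no library correlated best with its own number). The cause of these moves was not tested. TPM keep no depth, so genes under the minimum such as *Runx2* and *Col2a1* have no limit of detection here.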
